A study of Mus musculus with 79 samples.

Results

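The stretch examined was the flank of Dnmt3a on mouse chromosome 12 from 3000000 to 24000000 (GRCm38), chosen by position alone, with the gene itself (3806007 to 3914443, + strand) left out. It held 105 of the 25965 genes in the RNA-seq table and 20889 of the 2725549 ChIP-seq tiles, against 668 genes and 96131 tiles on the rest of chromosome 12, and 110 tiles over Dnmt3a were set aside. Dnmt3a encodes a DNA methyltransferase, and the study asked what a mutation in the PWWP domain of the enzyme, which reads methylated lysine 36 of histone H3, does to mice. Mice of the genotypes +/+ and Δ/D329A were compared, all aged 14 weeks, with hypothalamus as the tissue. In Δ/D329A the maternal allele (Δ) lacks exon 18 after recombination of a floxed allele by Cre driven from the oocyte promoter Zp3, and the paternal allele carries the change D329A, so that D329A is the only functional allele. D329A was introduced by gene targeting in C57BL/6 embryonic stem cells, and that line was crossed to C57BL/6Babr mice that carry the floxed allele and the Cre transgene. Expression was measured in 5 +/+ and 4 Δ/D329A mice, and H3K4me3, H3K27me3, H3K36me3 and input chromatin in 3 mice of each genotype, with 1 library per mouse and type. These are 33 of the 79 samples of the series. No Δ/+ or +/D329A mice were profiled for expression or chromatin in the libraries used, so the effect of sequence carried along with either targeted allele and the effect of the mutation cannot be told apart by genotype.

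When a gene is targeted and the allele is kept by breeding, the sequence around it is inherited with it, because recombination rarely separates neighbouring loci. Mice compared at the targeted gene can therefore also differ in flanking sequence if their ancestors differed there. Sequence present in several near-identical copies varies in copy number between mice more often than single-copy sequence, and short reads from such copies cannot all be placed uniquely. H3K4me3 marks active and poised promoters, H3K27me3 is laid down by Polycomb complexes at silent developmental genes, and H3K36me3 covers the bodies of transcribed genes. Input is chromatin sequenced without an antibody, and its coverage follows the amount of DNA, how chromatin is cut by the nuclease and how well reads can be placed.

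The flank has a single-copy proximal stretch and a distal stretch rich in repeated sequence. Of the 31-base words of the GRCm38 sequence, 11.1% occurred again on chromosome 12 for those from 3 to 17 Mb, against 11.6% on the rest of the chromosome and 76.4% from 18 to 24 Mb. By megabase, the share was 18.5% at 17 Mb, 71.7% at 18 Mb, 77.4% at 19 and at 20 Mb, 47.2% at 21 Mb, 92.2% at 22 Mb and 92.3% at 23 Mb. Fewer tiles of the flank than of the rest of the chromosome reached a mean input of 0.25 RPM (reads in a tile per 1000000 uniquely mapped reads), 84.9% against 96.6%.

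Sequences on which the results below turn are given 5′ to 3′ in lower case, with each CpG, the dinucleotide that DNA methyltransferases methylate, in capitals. The promoters are from RefSeq (GRCm38.p6, from 250 bases before to 50 after the start). That of Pomc, the gene nearest to the end of Dnmt3a, lies at chr12:3954695-3954994 (+ strand, 18 CpGs), that of Mfsd2b, where H3K27me3 differed, at chr12:4874310-4874609 (− strand, 15 CpGs), and that of 5730507C01Rik, where 2 marks differed, at chr12:18514260-18514559 (+ strand, 30 CpGs).
Pomc promoter: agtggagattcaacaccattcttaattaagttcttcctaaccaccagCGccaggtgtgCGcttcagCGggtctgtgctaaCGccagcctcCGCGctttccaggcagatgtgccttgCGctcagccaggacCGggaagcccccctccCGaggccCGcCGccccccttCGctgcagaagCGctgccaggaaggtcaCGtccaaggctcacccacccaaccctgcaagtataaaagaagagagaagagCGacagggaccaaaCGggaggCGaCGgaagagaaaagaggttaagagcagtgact
Mfsd2b promoter: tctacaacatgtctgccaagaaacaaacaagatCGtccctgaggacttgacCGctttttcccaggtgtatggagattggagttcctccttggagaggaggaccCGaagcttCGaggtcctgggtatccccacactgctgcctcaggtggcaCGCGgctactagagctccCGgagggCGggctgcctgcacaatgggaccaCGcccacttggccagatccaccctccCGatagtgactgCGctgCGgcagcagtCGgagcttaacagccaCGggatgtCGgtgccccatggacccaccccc
5730507C01Rik promoter: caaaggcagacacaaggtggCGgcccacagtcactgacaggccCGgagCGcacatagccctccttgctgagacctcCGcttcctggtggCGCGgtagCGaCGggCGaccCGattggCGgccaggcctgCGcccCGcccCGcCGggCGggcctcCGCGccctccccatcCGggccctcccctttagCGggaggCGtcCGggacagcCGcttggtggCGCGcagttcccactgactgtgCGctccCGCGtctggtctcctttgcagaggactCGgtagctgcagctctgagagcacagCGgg

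The other sequences are the central 300 bases, + strand of GRCm38.p6, of the 2 kb tile with the widest gap between the genotypes in a 10 kb window that differed. The input tile is from the window with the largest input difference (chr12:19716851-19717150, 4 CpGs). The H3K4me3 tiles are from the windows with the largest falls of this mark, one in single-copy sequence (chr12:16232851-16233150, 7 CpGs) and one in repeated sequence (chr12:20196851-20197150, 39 CpGs).
Input tile at 19.71 Mb: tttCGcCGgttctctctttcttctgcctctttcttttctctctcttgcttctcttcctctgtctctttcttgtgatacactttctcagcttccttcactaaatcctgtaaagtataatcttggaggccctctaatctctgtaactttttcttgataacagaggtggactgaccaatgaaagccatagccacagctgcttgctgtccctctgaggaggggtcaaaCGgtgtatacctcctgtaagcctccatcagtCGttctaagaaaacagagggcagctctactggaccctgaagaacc
H3K4me3 tile at 16.23 Mb: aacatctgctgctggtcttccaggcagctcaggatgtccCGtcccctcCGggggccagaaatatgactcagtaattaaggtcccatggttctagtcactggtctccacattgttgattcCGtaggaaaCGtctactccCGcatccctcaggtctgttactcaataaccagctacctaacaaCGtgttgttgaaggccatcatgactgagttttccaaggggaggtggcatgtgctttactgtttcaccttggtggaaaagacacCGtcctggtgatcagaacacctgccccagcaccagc
H3K4me3 tile at 20.19 Mb: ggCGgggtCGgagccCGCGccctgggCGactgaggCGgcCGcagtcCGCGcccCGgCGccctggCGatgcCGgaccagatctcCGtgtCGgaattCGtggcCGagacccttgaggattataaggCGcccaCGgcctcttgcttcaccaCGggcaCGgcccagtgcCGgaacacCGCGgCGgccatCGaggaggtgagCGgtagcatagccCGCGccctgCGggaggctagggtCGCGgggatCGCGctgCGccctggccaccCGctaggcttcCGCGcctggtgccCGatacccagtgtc

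The labels were first checked at Dnmt3a and on tissue markers. Dnmt3a stood at log2 RPKM 2.11, 1.85, 1.85, 1.71 and 2.04 in +/+ and at 1.66, 1.51, 1.65 and 1.72 in Δ/D329A. The groups overlapped by 1 library, and the level was lower in Δ/D329A by 0.28 on the log2 scale (exact permutation test, two-sided, p = 0.0317, smallest possible 0.0159; limma adjusted p = 0.355). This value is over the exons of the gene as a whole, so it does not show the deletion of exon 18. Mean input over the gene was 0.844, 0.910 and 0.859 RPM in +/+ and 0.866, 0.886 and 0.908 RPM in Δ/D329A (exact permutation test, p = 0.6, smallest possible 0.1). All 11 hypothalamic markers had reads in every library, and their summed level ran from 362 to 762 RPKM in +/+ and from 419 to 629 RPKM in Δ/D329A. Markers of thalamus summed to 8.82 to 13.1 RPKM in +/+ and 12.6 to 28.5 RPKM in Δ/D329A, those of cortical neurons to 0.463 to 0.825 and 0.948 to 1.30 RPKM and those of choroid plexus to 1.45 to 2.89 and 2.55 to 5.11 RPKM, and their part in the differences of RNA was not tested. The sums for thalamus and choroid plexus overlapped between the genotypes, and that for cortical neurons did not. The summed markers of medial habenula (5.26 to 12.3 and 4.76 to 8.80 RPKM), oligodendrocytes (214 to 331 and 154 to 286), astrocytes (42.7 to 62.9 and 43.1 to 89.2), microglia (12.8 to 25.2 and 14.9 to 26.8) and endothelial cells (8.30 to 22.1 and 12.6 to 16.9) also overlapped. The sum for medial habenula was carried by Tac2, and its marker Pou4f1 was called higher in Δ/D329A, at 27 to 58 reads against 0 to 5 in +/+ (limma adjusted p = 0.000607). Depth was 12676361 to 30207875 uniquely mapped reads per ChIP-seq library and 3874463 to 9977590 reads on genes per RNA-seq library. In bulk tissue, fewer cells of a type and less RNA per cell cannot be told apart.

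Input coverage differed between the genotypes in the distal stretch of the flank. Of 1823 windows of 10 kb tested in the flank, 39 had higher and 3 had lower input in Δ/D329A (limma over all windows of the genome, adjusted p under 0.05), which is 2.3% of the windows against 0.0192% of all windows tested in the genome (0.018% higher and 0.0012% lower) and 0.0421% (4 of 9501) on the rest of chromosome 12. Windows were tested where mean input over the 6 libraries was at least 0.25 RPM, so the limit was set on the values tested. Some called windows passed it only through Δ/D329A, such as that from 20020001, with means of 0.123 RPM in +/+ and 0.383 RPM in Δ/D329A. The count without this limit is given with the other settings below. The 4 windows called on the rest of the chromosome began at 24.25, 24.27, 24.3 and 27.69 Mb, so that 3 of them lay within 0.5 Mb of the distal limit of the flank. All 42 called windows of the flank lay from 18 to 24 Mb, where they were 12.4% of 339 windows tested and the median log2 difference was 0.17. In the 1484 windows from 3 to 18 Mb, which hold the sequence next to Dnmt3a, none was called and the median was -0.0018, beside -0.0048 on the rest of the chromosome. Between the 5th and 95th percentiles the windows from 3 to 18 Mb spanned -0.19 to 0.19, as did those of the rest of the chromosome.

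**Figure D1:**
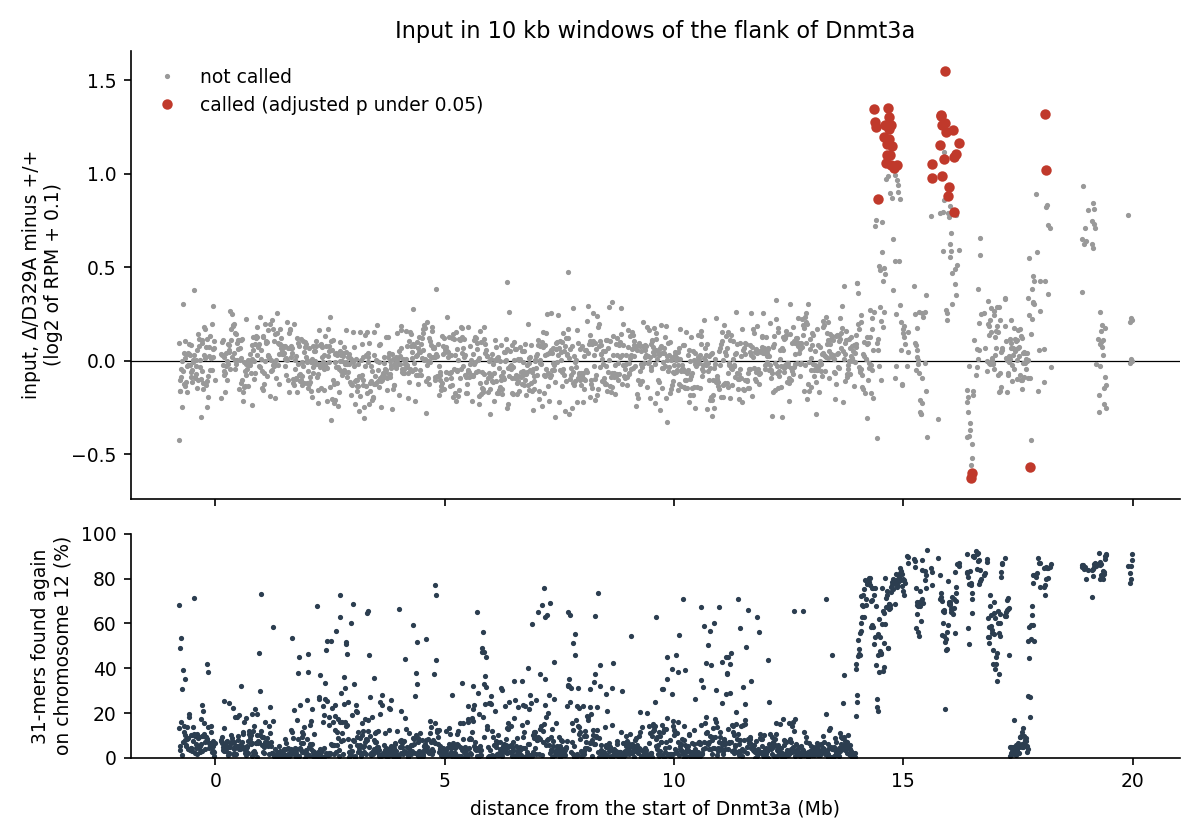
Difference of input coverage (Δ/D329A minus +/+, log2) in each tested 10 kb window of the flank by its distance from the start of Dnmt3a in Mb, with called windows in red, above the share of 31-base words of the window found again on chromosome 12 (%). The 42 called windows all lie at the distal end, 39 of them above 0, and the windows around Dnmt3a scatter around 0.

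The windows with higher input shared one order of libraries. Their median input was 0.0272, 0.338 and 0.318 RPM in +/+ libraries 1, 2 and 3 and 0.374, 0.670 and 0.655 RPM in Δ/D329A libraries 1, 2 and 3. Library 1 of +/+ was lowest and libraries 2 and 3 of Δ/D329A were the highest pair in all 39 windows, and in 14 of them the genotypes overlapped because library 1 of Δ/D329A lay within the range of +/+. Relative to the mean of Δ/D329A libraries 2 and 3, the medians stood at 4.11%, 51.1% and 48.0% in +/+ and at 56.5% in Δ/D329A library 1. The libraries thus lay at 3 levels, the lowest held only by +/+, the highest only by Δ/D329A and the middle by both. These windows were called for a difference between the genotypes. In reads, the medians per window over non-overlapping tiles were 2, 34 and 38 in +/+ and 56, 81 and 73 in Δ/D329A.

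The window with the largest difference, from 19710001 to 19720000, held 0, 0.394 and 0.368 RPM in +/+ and 0.4999, 0.828 and 0.940 RPM in Δ/D329A. The groups did not overlap, and the log2 difference was 1.55 (limma adjusted p = 0.00024, from a variance drawn towards that of all windows). Over all 39 windows the log2 difference ranged from 0.79 to 1.55 with a median of 1.16. In the tile whose sequence is given above, input was 0, 0.371 and 0.544 RPM in +/+ and 0.596, 1.05 and 1.20 RPM in Δ/D329A. Recurring 31-base words made up 0% of the stretch given above and 21.7% of the window from 19710001, the lowest share among the 42 windows called for input.

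**Figure D2:**
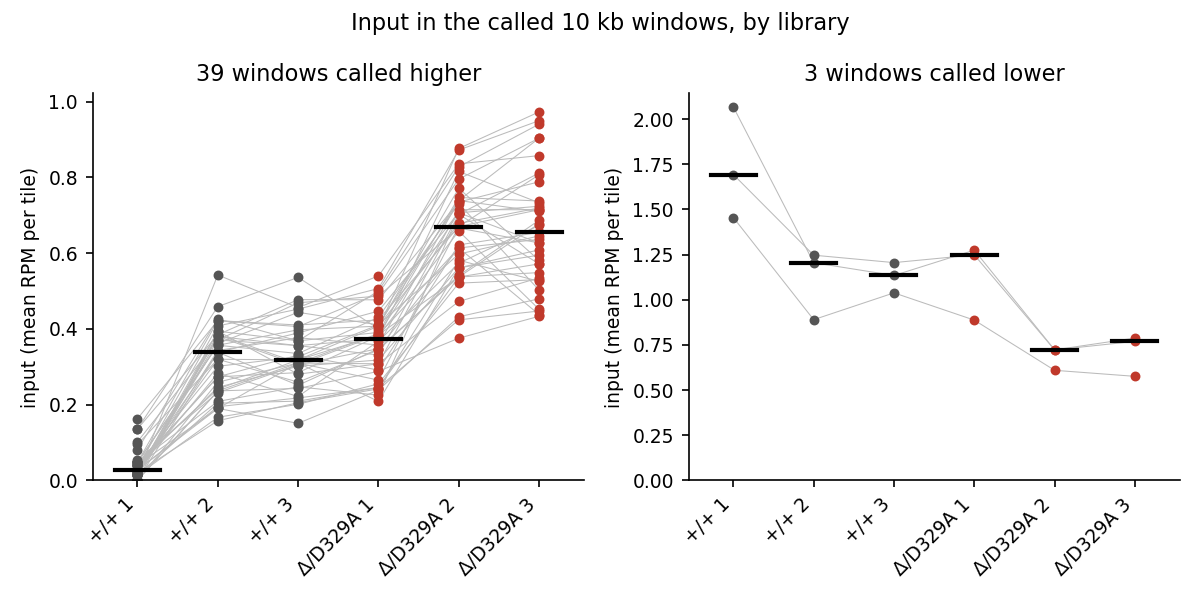
Input coverage (mean RPM per tile) of the 39 windows called higher (left) and the 3 called lower (right) in each of the 6 libraries, with 1 point per window, grey lines joining a window and a black bar at the median. On the left the medians stand at 0.0272, 0.338 and 0.318 RPM in +/+ and 0.374, 0.670 and 0.655 RPM in Δ/D329A, with +/+ library 1 near 0.

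Higher input was found mostly at 18 Mb (19 windows) and 19 Mb (17 windows), with 1 window at 20 Mb and 2 at 21 Mb. Most of these windows lay outside annotated genes, and the others overlapped 5730507C01Rik, the noncoding RNA Gm5784 or pseudogenes such as Gm9257. Recurring 31-base words made up 21.7% to 86.8% of the sequence of a called window (median 68.6%), beside a median of 72.5% in the 297 windows from 18 to 24 Mb that were not called, 5.54% in windows from 3 to 17 Mb and 4.90% in windows of the rest of the chromosome. High content of repeated sequence was thus shared by called and uncalled windows of the distal stretch.

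The 3 windows with lower input had the opposite order. They lay at 20.28 and 20.29 Mb, in an intron of Gm49692, and at 21.57 Mb. Their medians were 1.69, 1.20 and 1.13 RPM in +/+ and 1.25, 0.723 and 0.770 RPM in Δ/D329A, with library 1 of +/+ highest and libraries 2 and 3 of Δ/D329A the lowest pair in each. Their log2 differences were between -0.63 and -0.57.

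The counts depended on single libraries. Without +/+ library 1, 4 windows of the flank were called for input, without Δ/D329A library 2 the number was 2 and without Δ/D329A library 3 it was 0, whereas without Δ/D329A library 1 it was 80. Libraries 2 and 3 of Δ/D329A and 3 of +/+ also cover the mitochondrial genome more deeply in H3K4me3 and H3K27me3, and with this split as a block 11 windows were called, all higher in Δ/D329A. The input libraries did not show this split. Mean mitochondrial input was highest in +/+ library 1, at 83.0 RPM against 25.2 to 49.2 RPM in the others. Library 1 of +/+ was the lowest of the 6 in 73.8% of the windows tested at 18 Mb, 71.2% at 19 Mb and 93.8% at 22 Mb, and in 15% to 29.3% of the windows in each megabase from 3 to 17 Mb. The share at 20, 21 and 23 Mb was 30.3%, 35.8% and 26.9% of 66, 81 and 26 windows tested, and 16 windows were tested at 22 Mb. Only windows that reached the limit on input are counted, so these shares cannot show whether the pattern was continuous. Among 2 kb tiles taken without that limit, some at 20, 21 and 23 Mb held 0 RPM in +/+ library 1 and more input in every Δ/D329A library than in any of +/+.

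Averaged over 1 Mb, in tiles with a mean input of at least 0.25 RPM, no bin of the flank was called for input (0 of 21, background 0%). The bins at 18, 19 and 22 Mb had the highest log2 differences, 0.34 (adjusted p = 0.14), 0.36 (adjusted p = 0.132) and 0.57 (adjusted p = 0.14). The bins at 3 and 4 Mb, on either side of Dnmt3a, differed by -0.0089 and 0.0211.

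Single tiles showed the same place. Non-overlapping 2 kb tiles in which the libraries of the genotypes did not overlap and the means differed by at least 0.8 on the log2 scale numbered 260 higher in Δ/D329A in the flank (2.49% of 10445) and 15 lower (0.144%), beside 0.134% and 0.108% on all autosomes and 0.231% and 0.0791% on the rest of chromosome 12. From 18 to 24 Mb the shares were 8.03% higher and 0.267% lower, and from 3 to 17 Mb, where 16 tiles were higher and 7 lower, 0.23% and 0.101%. The shares from 3 to 17 Mb, which include the surroundings of Dnmt3a, thus lay near those of the rest of the chromosome. This count has no test.

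Of the histone marks, H3K36me3 differed in the most windows of the flank. It was higher in Δ/D329A in 52 windows and lower in 11, or 3.46% of 1823, against 0.222% of all windows in the genome (0.122% higher and 0.1% lower) and 0.211% on the rest of chromosome 12. Of these, 55 lay from 18 to 24 Mb, 6 from 17.79 to 17.86 Mb and 2 next to Osr1 at 9.57 and 9.6 Mb, and none lay in the megabases from 3 to 8 Mb. The order of libraries was that of input, with +/+ library 1 most extreme in 51 of the 52 higher and 9 of the 11 lower windows, and the genotypes overlapped in 11 and 4 of them. In the 52 windows the median difference of input was 0.81 on the log2 scale, and after subtraction of input on that scale the median difference of H3K36me3 was 0.16 and 3 windows higher and 3 lower remained called. H3K27me3 and H3K36me3 had the order of input across the 39 windows of higher input, where median H3K27me3 was 0.0378, 0.342 and 0.471 RPM in +/+ and 0.538, 0.894 and 0.934 RPM in Δ/D329A and median H3K36me3 was 0.0175, 0.114 and 0.120 RPM and 0.146, 0.251 and 0.257 RPM. H3K4me3 did not have this order, with medians of 0, 0.0665 and 0.0328 RPM in +/+ and 0.138, 0.0631 and 0.0839 RPM in Δ/D329A, where library 1 of Δ/D329A was highest and library 2 of +/+ exceeded library 2 of Δ/D329A. In H3K4me3, library 1 of Δ/D329A had a median of 5 reads per tile over the genome, against 1 to 3 in the others. It was also highest in the bin at 6 Mb, at 0.324 RPM against 0.0856 to 0.180 RPM. Its rank at these low levels was thus not particular to these windows.

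The windows that remained called for H3K36me3 over input began at 20870001, 20890001 and 21740001 (higher) and at 18890001, 19860001 and 20240001 (lower). The window from 20890001, over Zfp125 and 3110053B16Rik, both annotated as transcribed pseudogenes, held 0.713, 2.64 and 2.43 RPM in +/+ and 2.22, 4.05 and 3.62 RPM in Δ/D329A. The groups overlapped through +/+ libraries 2 and 3, which exceeded Δ/D329A library 1, and the log2 difference was 0.89 (adjusted p = 4.81e-04). In an intron of Gm49692, the window from 20240001 held 2.08, 1.87 and 1.76 RPM in +/+ and 0.993, 0.742 and 0.661 RPM in Δ/D329A. There was no overlap, and the fall was -1.17 on the log2 scale (adjusted p = 6.36e-11). The window from 19860001 fell from 0.797, 0.612 and 0.722 RPM to 0.531, 0.270 and 0.210 RPM, by 0.95 on the log2 scale.

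Below 18 Mb, H3K36me3 rose at 2 places. At Osr1, a zinc finger transcription factor of kidney and heart development, the window from 9570001 held 0.127, 0.133 and 0.136 RPM in +/+ and 0.438, 0.275 and 0.388 RPM in Δ/D329A, without overlap (log2 difference 0.99, adjusted p = 0.00113). The window from 9600001, downstream of Osr1, held 0.665, 0.678 and 0.544 RPM in +/+ and 1.13, 0.845 and 0.976 RPM in Δ/D329A (0.57, adjusted p = 0.0301). Over input these differences were 0.84 (adjusted p = 0.197) and 0.47 (adjusted p = 0.567), and neither was called. The 6 windows from 17.79 to 17.86 Mb began over an exon of Hpcal1, a calcium sensor of neurons. Recurring 31-base words made up 24.9% to 55.9% of these windows, more than the median of 5.54% from 3 to 17 Mb, library 1 of +/+ was the most extreme in all 6, and none was called over input. Among them, that from 17850001 held 0.350, 0.967 and 0.764 RPM in +/+ and 1.06, 1.23 and 1.62 RPM in Δ/D329A, again without overlap (0.89).

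In bins of 1 Mb, 2 of the 21 bins of the flank were called for H3K36me3, the one at 22 Mb higher (background 0.701%) and the one at 4 Mb lower (background 2.34%, and 3.04% in either direction). On the rest of chromosome 12, 1 bin was called higher and 5 lower of 96 (6.25%). At 22 Mb the libraries held 0.079, 0.233 and 0.223 RPM in +/+ and 0.243, 0.335 and 0.391 RPM in Δ/D329A, a log2 difference of 0.64 (adjusted p = 0.000297). These are means over only the 170 tiles that reached a mean input of 0.25 RPM, beside 989 tiles in the bin at 4 Mb. Mean input in the 170 tiles was 0.262 RPM in +/+ and 0.423 RPM in Δ/D329A. The bin at 4 Mb begins within 0.1 Mb of the end of Dnmt3a and holds, among others, Adcy3, Ncoa1 and Itsn2. It held 1.24, 1.26 and 1.23 RPM in +/+ and 1.14, 1.20 and 1.11 RPM in Δ/D329A, so that each Δ/D329A library lay below each +/+ library, by 0.10 on the log2 scale (adjusted p = 0.0341). This bin was no longer called in 9 of the 13 other settings applied to it, and that at 22 Mb in 4.

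**Figure D3:**
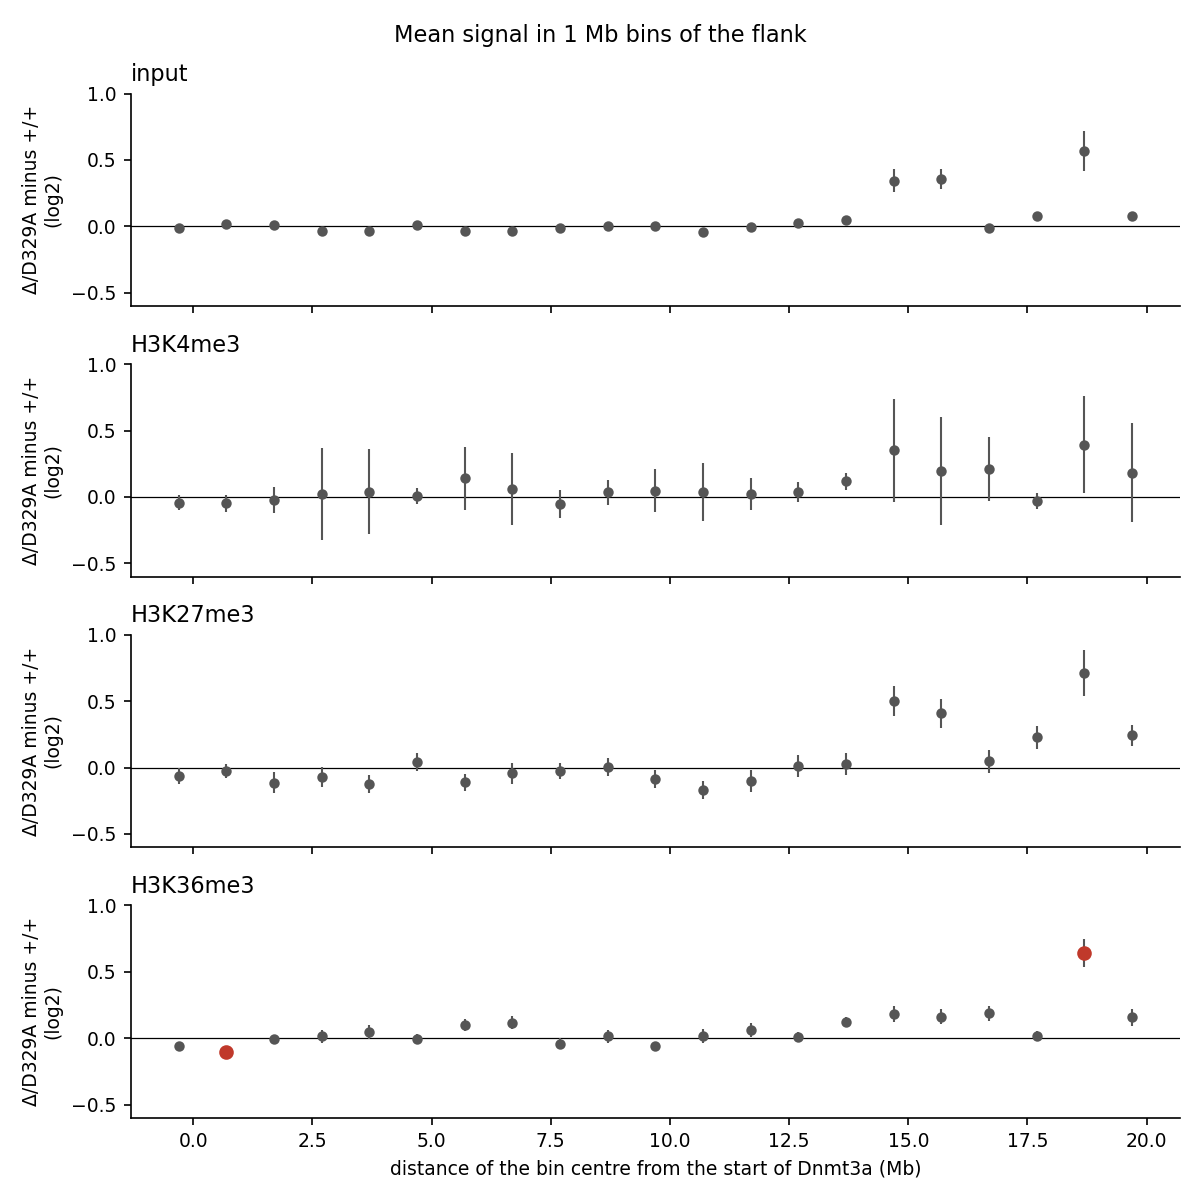
Difference (Δ/D329A minus +/+, log2) in each 1 Mb bin of the flank for input and the 3 marks, with error bars of 1 SE, by the distance of the bin from the start of Dnmt3a in Mb, with called bins in red. Input differs most in the bins at 18, 19 and 22 Mb (0.34, 0.36 and 0.57), and H3K36me3 is called at 22 Mb (0.64) and at 4 Mb (-0.10).

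H3K4me3 differed in 9 windows of the flank, 6 higher and 3 lower in Δ/D329A (0.494%), beside 0.171% of all windows (0.034% higher and 0.137% lower) and 0.274% on the rest of chromosome 12. When the libraries were centred on their median, 1 higher and 1 lower remained. The largest fall was in single-copy sequence, in the window from 16230001 over the long noncoding RNAs Gm48605 and Gm48606. It held 2.35, 1.20 and 1.44 RPM in +/+ and 0.941, 0.450 and 0.349 RPM in Δ/D329A, without overlap and with a log2 difference of -1.42 (adjusted p = 1.58e-08). The tile of this window given above held 8.16, 3.59 and 5.25 RPM in +/+ and 2.63, 1.18 and 0.710 RPM in Δ/D329A.

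The window from 20190001, over an exon of Gm49692, fell from 3.66, 3.39 and 3.28 RPM to 1.86, 0.947 and 1.15 RPM (-1.37, adjusted p = 3.18e-11). Its tile given above, rich in CpG and with 72.6% of its 31-base words recurring on the chromosome, held 16.1, 14.8 and 14.4 RPM in +/+ and 7.78, 3.94 and 4.97 RPM in Δ/D329A. Over the pseudogenes Gm49329 and Gm49330, the window from 17990001 fell from 3.57, 2.62 and 3.07 RPM to 1.86, 2.17 and 1.40 RPM (-0.75). None of these 3 windows overlapped between the genotypes, and input in them differed by a median of 0.0082 on the log2 scale. Over input the differences were -1.54 (adjusted p = 4.7e-07) at 16230001, -1.21 (adjusted p = 2.57e-05) at 20190001 and -0.76 at 17990001, the last no longer called (adjusted p = 0.159).

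Of the 6 windows with higher H3K4me3, that over an exon of Osr1 lay in single-copy sequence. From 9580001 it held 1.79, 1.66 and 1.62 RPM in +/+ and 2.58, 3.64 and 3.21 RPM in Δ/D329A, without overlap (0.85, adjusted p = 0.00121; over input 0.97, adjusted p = 0.00415). The others, from 18510001, 18600001, 18610001, 20910001 and 20920001, rose by 0.90 to 1.17, and the genotypes overlapped in all 5. That from 18510001 covers an exon of 5730507C01Rik. In the windows from 18510001, 18600001 and 18610001 input also rose, by 0.90, 1.03 and 0.99, and the differences over input were 0.27, 0.03 and 0.14 (adjusted p = 1 for each). The difference in the window from 20910001 was 0.68 over input (adjusted p = 0.441). That from 20920001 held 0.816, 3.13 and 3.29 RPM in +/+ and 2.90, 5.03 and 4.42 RPM in Δ/D329A, and its difference was 0.93, and 1.09 over input (adjusted p = 3.73e-04). No bin of 1 Mb was called for H3K4me3 (0 of 21, background 0.195%, of which 0.0779% higher and 0.117% lower).

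H3K27me3 differed in 4 windows, 3 higher and 1 lower (0.219%), beside 0.0689% of all windows (0.0369% higher and 0.032% lower) and 0.0421% on the rest of chromosome 12. After centring 9 were higher and 1 lower. The lower window was that from 9580001 at Osr1, where H3K4me3 was higher, and it held 3.88, 3.93 and 3.85 RPM in +/+ and 1.77, 2.81 and 2.14 RPM in Δ/D329A, without overlap (-0.79, adjusted p = 0.0118; over input -0.67, adjusted p = 0.228). The window from 9580001, with more H3K4me3 and less H3K27me3, covers only the end of Osr1 (9574442 to 9581499, + strand) and sequence downstream. That from 9570001, which holds the gene start and had more H3K36me3, was not called for H3K4me3 (0.56, limma adjusted p = 0.893) or H3K27me3 (-0.30, limma adjusted p = 0.389). Of 13 other settings, the call was lost in 8 for H3K27me3 and in 5 for H3K4me3 in the window from 9580001, and in 2 for H3K36me3 in the window from 9570001. The 3 higher windows, from 18690001, 19640001 and 19910001, rose by 1.21, 1.35 and 1.16, beside rises of input there of 0.90, 0.99 and 0.79, and none was called over input. No bin of 1 Mb was called (0 of 21, background 0%).

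**Figure D4:**
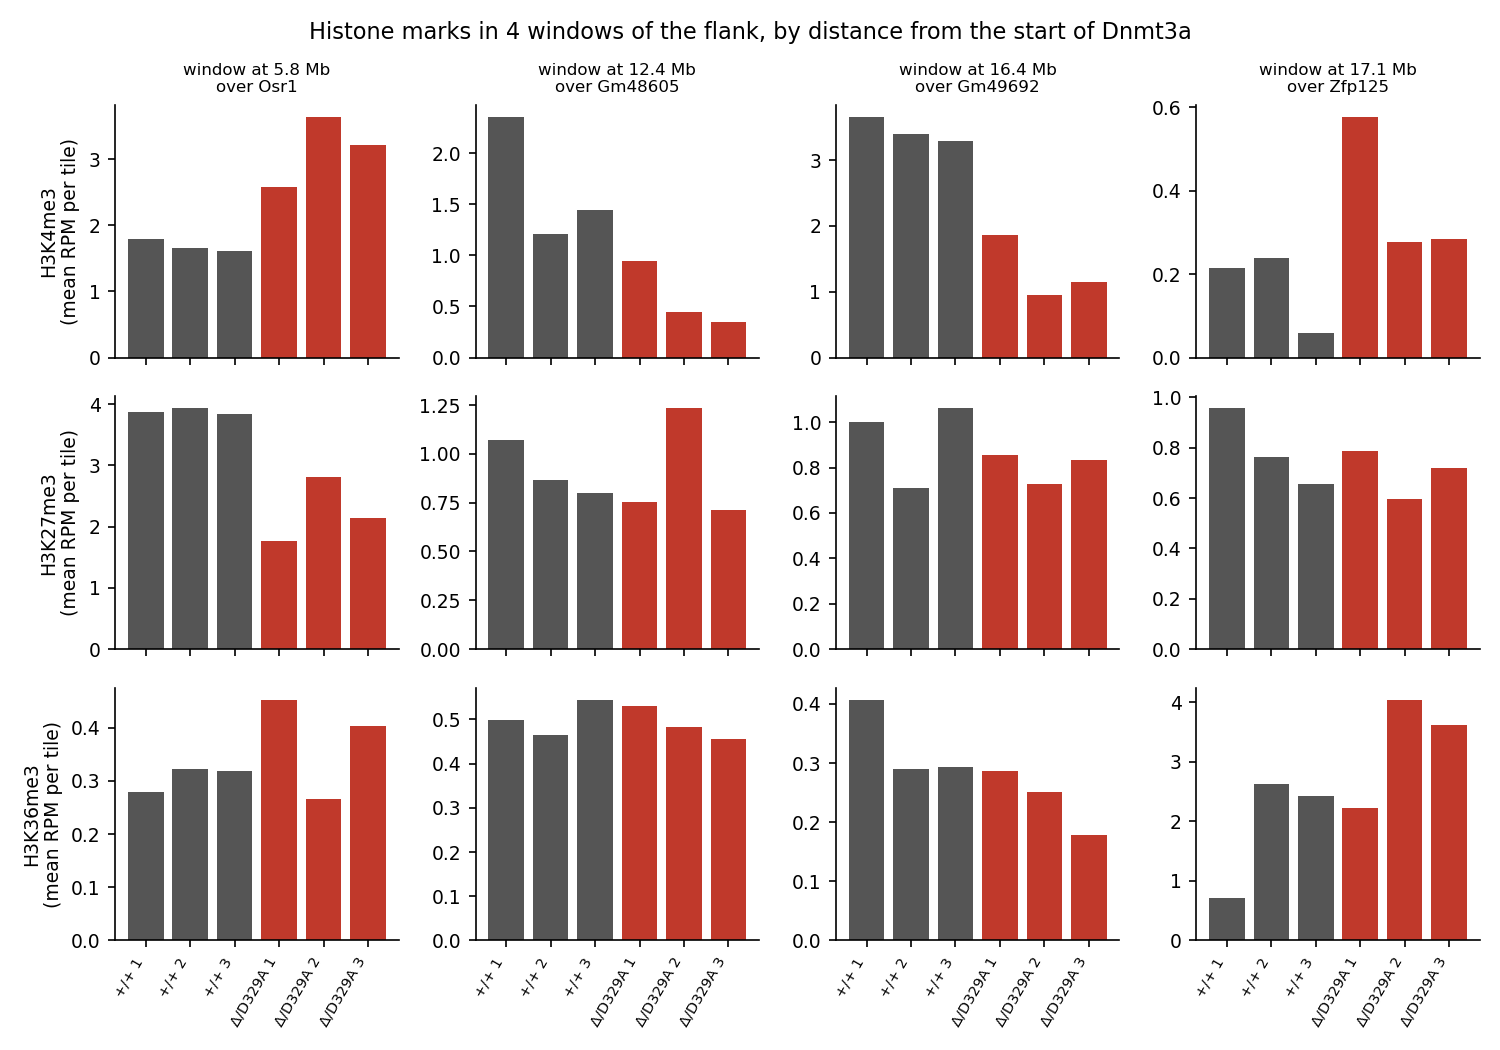
Level (mean RPM per tile, axes from 0 and set per panel) of H3K4me3, H3K27me3 and H3K36me3 (from top to bottom) in 4 windows, with 1 bar per library, +/+ in grey and Δ/D329A in red. In the left column, over the end of Osr1 and sequence downstream, H3K4me3 is higher in Δ/D329A (2.58 to 3.64 against 1.62 to 1.79 RPM) and H3K27me3 lower (1.77 to 2.81 against 3.85 to 3.93 RPM).

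Promoter regions reaching 1500 bp upstream and 500 bp downstream of each gene start were tested for 96 of the 105 genes. H3K4me3 was called at 3 of them (2 higher, 1 lower, 3.12% against 0.952% of all promoters, 0.165% higher and 0.787% lower), H3K27me3 at 3 (all higher, 3.12% against 1.02%, 0.811% higher and 0.21% lower) and H3K36me3 at 1 (higher, 1.04% against 0.0484%). On the rest of chromosome 12, 18, 4 and 0 of 656 promoters were called. Centring the libraries moved the median difference of H3K4me3 over all promoters from -0.071 to 0.10 on the log2 scale and that of the flank from -0.080 to 0.091, and no H3K4me3 or H3K36me3 promoter of the flank was then called.

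Among the protein-coding genes near Dnmt3a, the promoter of Mfsd2b, an exporter of sphingosine-1-phosphate in blood cells, had more H3K27me3. It held 1.16, 0.901 and 1.21 RPM in +/+ and 2.66, 1.91 and 2.21 RPM in Δ/D329A, without overlap, a log2 difference of 0.98 ± 0.22 (SE, adjusted p = 0.0072). Over input the difference was 1.17 (adjusted p = 0.0778). Its H3K4me3 was 4.30, 4.09 and 6.34 RPM in +/+ and 2.35, 4.06 and 3.84 RPM in Δ/D329A, without overlap and without a call (-0.52, adjusted p = 1), and its RNA differed by 0.06.

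The other called promoters lay from 18 to 24 Mb. At 5730507C01Rik, whose promoter sequence is given above, H3K4me3 was 0.0632, 2.89 and 3.12 RPM in +/+ and 1.63, 4.65 and 4.26 RPM in Δ/D329A (1.504 ± 0.32, adjusted p = 0.000734), with overlap, and H3K27me3 was 0.0944, 1.20 and 0.917 RPM and 1.82, 2.54 and 3.10 RPM (1.99, adjusted p = 0.000219), without overlap. Neither was called over input. At Gm20533, H3K4me3 was 0.885, 4.42 and 5.25 RPM in +/+ and 3.45, 8.40 and 6.81 RPM in Δ/D329A (1.04, adjusted p = 0.00936; over input 1.499, adjusted p = 0.00167), with overlap. In each of these +/+ library 1 was the lowest.

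H3K4me3 was lower at the promoter of Gm3944, at 0.949, 0.632 and 0.558 RPM in +/+ and 0.314, 0.0789 and 0.0645 RPM in Δ/D329A (-1.79 ± 0.50, adjusted p = 0.0401; over input -1.85, adjusted p = 0.00701), without overlap and at low levels throughout. H3K27me3 was higher at Gm10480, at 0.0629, 0.270 and 0.521 RPM in +/+ and 0.672, 0.860 and 1.12 RPM in Δ/D329A (1.53, adjusted p = 0.0101; over input 0.53, adjusted p = 0.75). H3K36me3 was higher at Zfp125, at 1.31, 4.24 and 3.06 RPM in +/+ and 3.36, 6.39 and 6.09 RPM in Δ/D329A (0.95, adjusted p = 0.000313; over input 1.02, adjusted p = 0.657), with overlap.

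At Pomc, the precursor of melanocortin peptides and corticotropin, promoter H3K27me3 was 3.43, 3.27 and 2.95 RPM in +/+ and 4.17, 2.96 and 3.63 RPM in Δ/D329A, with overlap (0.14, adjusted p = 0.855), and H3K4me3 was under 1 RPM in every library (-0.42, adjusted p = 1). At Pqlc3, a PQ-loop membrane protein, H3K4me3 was 11.3, 8.88 and 9.39 RPM in +/+ and 4.99, 7.42 and 5.39 RPM in Δ/D329A, without overlap, and was not called (-0.74, adjusted p = 0.0968). The promoter of Osr1 itself was not called for H3K27me3 (-0.13, adjusted p = 0.814) or H3K36me3 (1.23, adjusted p = 0.365), nor for H3K4me3, so the calls at this gene were made for 10 kb windows and not for the promoter on its own.

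Expression of the flank genes did not differ at the threshold. Of the 105 genes, 87 passed the limit of 0.1 RPKM in at least 4 libraries and none was called (limma, adjusted p under 0.01, background 0.107%), and the smallest adjusted p was 0.355. On recovered reads, edgeR called 0 of 64 and DESeq2 0 of 73. At an unadjusted p under 0.05 limma had 2 genes higher and 2 lower (background 7.62% in either direction), edgeR 4 and 7, and DESeq2 4 and 5. The 18 genes that did not pass included Apob, Gdf7, Matn3 and Pqlc3. Of the 87, 16 had under 10 reads in all libraries together and 10 had none, since a gene without a read is deposited at a value set by depth, so summaries are given for the 71 genes with at least 10 reads. Of these, 30 were above 0 and 41 below, with a median log2 difference of -0.03 and a median SE of 0.22, beside medians of 0.02 over 15491 genes of the genome and -0.0053 over 478 genes on the rest of chromosome 12.

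None of the genes within 500 kb of Dnmt3a was called. Of 14 genes 12 were tested, 6 above and 6 below 0 with a median of 0.0025. On the side of its start, Rab10, a small GTPase of vesicle transport, differed by -0.23, the kinesin Kif3c by 0.01, 1110002L01Rik by 0.09, the Polycomb-associated Asxl2 by -0.19 and the dystrobrevin Dtnb by 0.31 (limma adjusted p = 0.407). On the side of its end, Efr3b, which anchors a lipid kinase to the plasma membrane, differed by -0.09, the J-domain protein Dnajc27 by -0.04, the adenylyl cyclase Adcy3 by -0.01, the kinetochore gene Cenpo by 0.16, 2410017P09Rik by 0.26 and the steroid receptor coactivator Ncoa1 by 0.08. In every one of these the genotypes overlapped. Cenpo overlaps Adcy3 and 2410017P09Rik, and 1110002L01Rik overlaps Kif3c and Asxl2, and whether counting used the strand is not given in the sources used here.

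Pomc, whose start lies 40.5 kb past the end of Dnmt3a, had the largest fall of the 71 genes and the lowest p of all flank genes. It stood at log2 RPKM 5.12, 3.57, 3.37, 3.48 and 3.26 in +/+ and 3.40, 1.502, 3.14 and 2.74 in Δ/D329A. The highest value was that of +/+ library 1 and the lowest that of Δ/D329A library 2, and the genotypes overlapped through Δ/D329A library 1. The difference was -1.06 ± 0.45 (SE, limma adjusted p = 0.355). Summed markers of anterior pituitary, where Pomc is also expressed, ran from 0.686 to 17.2 RPKM in +/+ and from 3.25 to 11.9 RPKM in Δ/D329A, and their part in the level of Pomc was not tested.

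**Figure D5:**
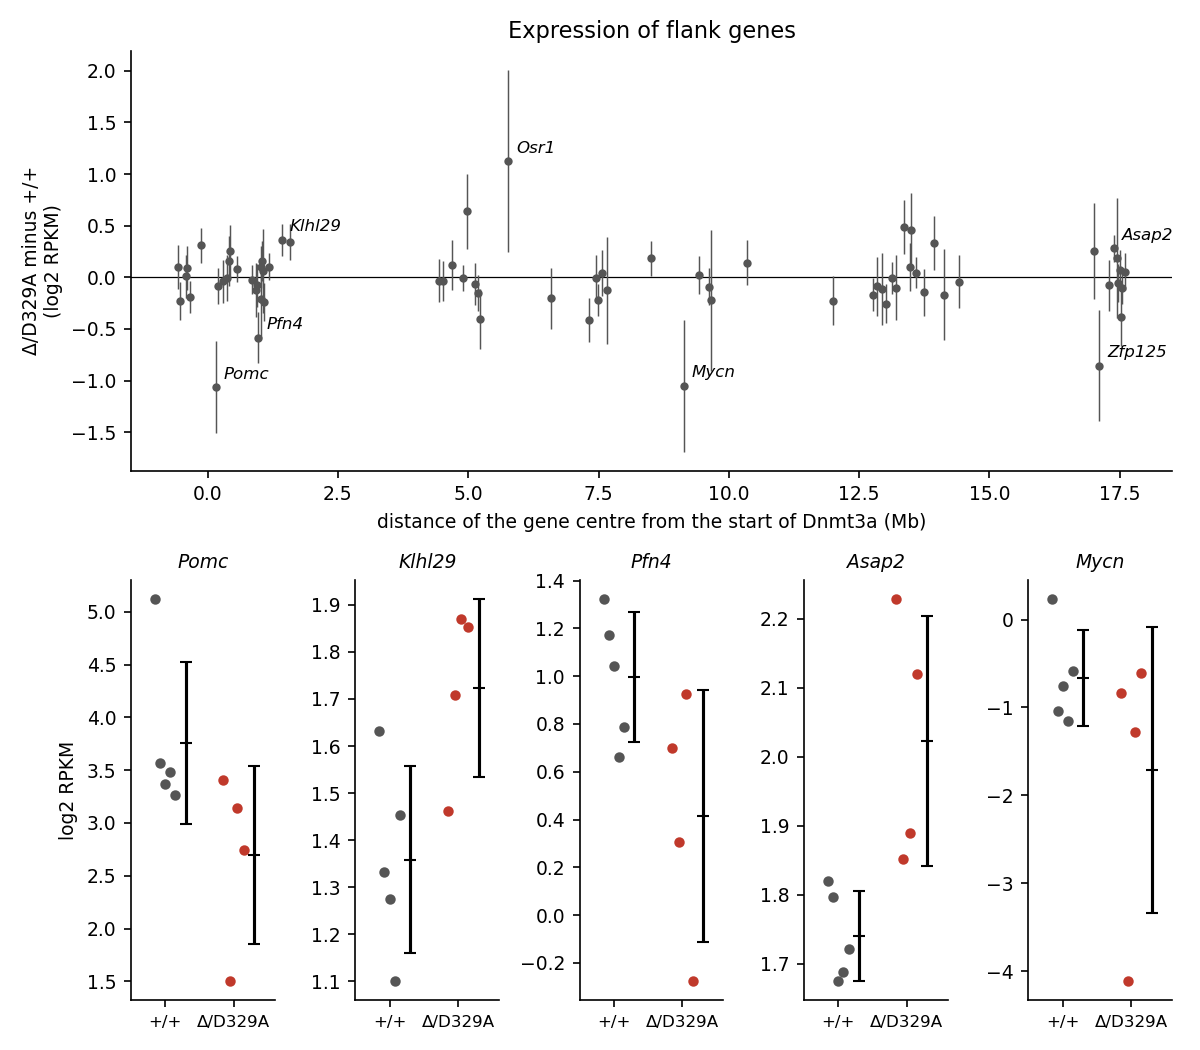
Difference of expression (Δ/D329A minus +/+, log2 RPKM) of the tested flank genes with at least 10 reads against the distance of the gene from the start of Dnmt3a in Mb with error bars of 1 SE, and below it the log2 RPKM of each library for 5 genes, with the mean and 1 SD as bars. The 12 genes within 500 kb lie between -1.06 (Pomc) and 0.31 (Dtnb), and no gene of the flank is called.

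Farther from Dnmt3a the differences were as small. From 500 kb to 2 Mb, 7 of 13 genes were above 0 (median 0.06), from 2 to 14 Mb 12 of 34 (median -0.05) and beyond 14 Mb 5 of 12 (median -0.05). Klhl29, a kelch-like protein, stood at 1.63, 1.33, 1.27, 1.10 and 1.45 in +/+ and 1.46, 1.71, 1.87 and 1.85 in Δ/D329A, with overlap (0.37 ± 0.15, SE, limma adjusted p = 0.355). The profilin Pfn4 differed by -0.58 (limma adjusted p = 0.355), and the remaining gene with an unadjusted p under 0.05, Gm6682, had 1 read in all.

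Only 2 tested genes did not overlap between the genotypes (background 3%), Gm6682 and Asap2. Asap2, an activator of Arf GTPase, stood at 1.82, 1.80, 1.68, 1.69 and 1.72 in +/+ and 2.23, 1.85, 1.89 and 2.12 in Δ/D329A (0.28 ± 0.13, SE, limma adjusted p = 0.355). It lies from 21111748 to 21270171, inside the distal stretch.

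By role, no list had a called gene. Of the 6 endocrine genes, 2 were above 0 and 4 below (median -0.02), and the calcium sensor Vsnl1, the highest of them in level, differed by 0.04. Of 8 genes of growth and cell cycle, 2 were above and 6 below (median -0.13), with the transcription factor Mycn at -1.05 (adjusted p = 0.491), E2f6 at -0.25, the structural maintenance gene Smc6 at -0.22, Odc1, the first enzyme of polyamine synthesis, at -0.15, Rad51ap2 at -0.12, the resolvase Gen1 at -0.01, the 14-3-3 protein Ywhaq at 0.06 and Cenpo at 0.16. Mycn rested on Δ/D329A library 2, which stood at -4.11 beside -0.84, -1.28 and -0.61 in the other Δ/D329A libraries and -1.15 to 0.23 in +/+.

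Of 6 developmental regulators 4 were tested, 2 above and 2 below 0 (median 0.0033). Osr1 stood at -3.21, -0.65, -4.75, -0.44 and -0.62 in +/+ and -0.12, -1.59, 0.17 and -1.68 in Δ/D329A, that is at 1 to 30 reads, and its difference of 1.13 was not called (adjusted p = 0.663). The GTPase Rhob differed by 0.12, the oestrogen-regulated Greb1 by -0.11 and the pseudokinase Trib2 by -0.23. Of 9 neuronal genes, 5 were above and 4 below 0 (median 0.01), from -0.41 for the potassium channel subunit Kcns3 to 0.64 for the proteoglycan Sdc1, with Kcnf1, another such subunit, at 0.49 (adjusted p = 0.407), the scaffold Itsn2 at -0.02 and the kinase Rock2 at -0.01. Of 3 chromatin genes, the bromodomain protein Atad2b differed by 0.10, the helicase Ddx1 by 0.02 and Asxl2 by -0.19 (median 0.02). Of 4 lipid genes 2 were tested, the phosphatidate phosphatase Lpin1 at -0.17 and Mfsd2b at 0.06 (median -0.05).

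Of 20 tested genes that start from 18 to 24 Mb, 11 had at least 10 reads. They ranged from 1700030C10Rik, with 14 reads, to Ywhaq, with 11136 reads and a mean log2 RPKM of 4.76 in +/+ and 4.82 in Δ/D329A. At Zfp125, where H3K36me3 was higher at the promoter, the RNA differed by -0.86 (adjusted p = 0.515), at Gm20533, where H3K4me3 was higher, by -0.08, and at Gm10480 by -0.04. Hpcal1, which ends where H3K36me3 rose, differed by 0.33 (adjusted p = 0.66). No gene tested there had a called change of RNA between the genotypes. On the log2 scale the SE was 0.54 for Zfp125 and 0.25 for Gm20533, beside a median of 0.22 over the 71 genes. Input levels did not follow the genotypes, and the labels do not match RNA-seq to ChIP-seq animals. The RNA therefore cannot show whether expression went with the altered input.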

How the data were processed

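Members were the rows and tiles on chromosome 12 from 3000000 to 24000000 outside Dnmt3a, and the members and gene lists were chosen with earlier results of these data known. For RNA-seq of ribosome-depleted RNA, reads were trimmed and mapped with HISAT2 against GRCm38 by the authors, who deposited log2 RPKM values from SeqMonk over the joined exons of each gene. They left out 1 further Δ/D329A library for quality. For native ChIP-seq of nuclease-cut chromatin, 2.5% of a hypothalamus per immunoprecipitation, the deposited signal is the reads in 2000 bp tiles every 1000 bp divided by library depth (uniquely mapped) to give reads per 1000000 (RPM), without input subtracted. The mapper is Bowtie2 2.3.2 per the labels but Bowtie in the study's methods, and which of them placed the reads in repeated sequence is not settled by the sources used here. Whole reads were recovered from both (all tiles within 0.01 reads, genes within 0.02). For 13342 of the 25965 genes several exon lengths fitted. The GENCODE exon length was then taken where it was among them, and otherwise the shortest, so the read counts of these genes rest on that choice. Uniquely mapped reads were 14708936 to 30207875 for input, 12676361 to 15944966 for H3K4me3, 14874942 to 26178088 for H3K27me3 and 19056381 to 22850001 for H3K36me3. A gene without reads stands at 0.9 reads. The bisulfite libraries were not analysed here.

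Each library is 1 animal, so the animal is the unit of replication. limma drew the variance of each gene, window, bin or promoter towards the trend over all of them. A limma p-value therefore does not measure the spread between the animals at that place alone. In the input window from 19710001, with +/+ at 0, 0.394 and 0.368 RPM, the SE was 0.23 on the log2 scale. No 2 replicates agreed within sampling noise. All tests were two-sided. limma 3.58.1 (R 4.3.3, variance trend) was fitted to all genes outside the mitochondrial genome with 4 or more libraries reaching 0.1 RPKM (Benjamini-Hochberg adjusted p under 0.01). It was also fitted, on log2 of the mean tile value plus 0.1 RPM, to all 10 kb windows and promoters with a mean input of at least 0.25 RPM. Bins of 1 Mb averaged only tiles at or above this limit and were fitted with 100 or more such tiles. Windows, promoters and bins were called at an adjusted p under 0.05. Marks over input subtract log2 input. Alternatives were edgeR 4.0.16 and DESeq2 1.42.0 on recovered reads, other scalings, limits, pseudocounts and window sizes, a replicate block, a block by mitochondrial coverage and left-out libraries. The limit on input for tile counts was added after the data had been seen. Fits were tested on simulated data with the same spread in all libraries. No simulated library fell to near 0 over a stretch, so the simulation cannot show how the fits behave in the distal stretch.

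Genes named are those within 500 kb of Dnmt3a, those called, those without overlap between the genotypes and members of lists by role. Windows, bins and promoters named are those called and the promoters of these genes, and 1 window of several is given in full where they are alike. Genes with an unadjusted p under 0.05 and Hpcal1 were added after their values were seen, as were the library ratios over called windows and the split of the flank at 17 and 18 Mb. Repeated sequence is the share of 31-base words of the GRCm38 reference found again on chromosome 12 on either strand. RefSeq promoter sequences matched 66 of 104 symbols of the flank (203 sequences with a median of 8 CpGs), and 94.6% of all 32851 promoter sequences hold a CpG (median 7). Figures were drawn with Python 3.11.15 and matplotlib 3.10.9.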

Additional observations from a re-analysis of the deposited data

Results flagged for a closer look

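Of 72 sets of 4 or 5 RNA-seq libraries of a genotype examined for flank genes, 3 held a library far from the others, and chance gives about 1 in 20. Pomc stood at log2 RPKM 5.1181 in +/+ library 1 (643 reads), beside 3.57 in the next of the +/+ libraries. Rad51ap2 stood at -1.4513 in +/+ library 4 (18 reads), beside -2.24 in the next. Trib2 stood at 2.2455 in Δ/D329A library 2 (214 reads), beside 2.75 in the next.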

How the results depend on the processing

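Direction was compared between settings only for single called windows, bins and promoters of those named and for Dnmt3a, and none of these turned. The median difference over the 87 tested flank genes did turn, from 0.024 in the main fit to -0.034 after quantile normalization. For input windows (42 called) the count was 26 without the limit on input, 11 with the mitochondrial block and 16 in 50 kb windows. For H3K4me3 windows (9) it was 2 with median centring, 0 without the limit, 1 with edgeR and 4 in 50 kb windows. For H3K27me3 windows (4) it was 7 with a pseudocount of 0.5 RPM, 10 with centring, 0 without the limit, over input or in 50 kb windows and 1 with the mitochondrial block. For H3K36me3 windows (63) it was 0 without the limit, 8 over input, 26 with the mitochondrial block and 40 in 50 kb windows, and centring gave 44 higher and 15 lower. H3K36me3 bins (2) numbered 4 with a pseudocount of 0.5 RPM, 0 with centring or edgeR and 1 without the limit, over input or with the mitochondrial block. Promoters for H3K4me3 (3) numbered 0 with centring, without the limit or with edgeR and 1 with the mitochondrial block, those for H3K27me3 (3) 0 without the limit or over input, and that for H3K36me3 (1) 0 with centring, without the limit, with edgeR or over input. Tiles of altered input (275) numbered 475 at a difference of 0.6 and 148 with a limit on input, the latter chosen after the data had been seen. The cause of these changes was not tested.

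Replicate numbers do not pair the animals (same-number correlations of deviations from -0.24 to 0.207 over the marks and input and from -0.054 to 0.137 for RNA). Every library correlated best with its own number in no library type. With a replicate block the counts were 83 for input windows, 86 for H3K27me3 windows, 3 for input bins, 3 for H3K27me3 bins and 5 for H3K36me3 bins, and no other count moved by over 1.5 times. For tile counts no paired analysis was possible because the count comes from no test.

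Leaving out 1 library at a time gave 0 to 80 input windows, 3 to 17 for H3K4me3, 0 to 52 for H3K27me3 and 9 to 66 for H3K36me3, 0 to 5 input bins, 0 to 0 H3K4me3 bins, 0 to 3 H3K27me3 bins and 1 to 8 H3K36me3 bins, 0 to 4, 1 to 4 and 0 to 1 promoters for H3K4me3, H3K27me3 and H3K36me3, 233 to 687 tiles, 0 to 0 called genes and a Dnmt3a difference of -0.33 to -0.23. Of the values of single genes and regions, 773 kept their side of the threshold, 79 fell below it and 3, all of Gm6682, moved with no call. With 3 animals a genotype and windows of a few reads in +/+ library 1, small differences were not detectable. Depth does not settle how reads from near-identical copies were placed.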
